A study of Mus musculus with 9 samples.

Results

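Neutrophil lineage transcription factors were followed in Gr-1bright neutrophils of mouse skin bearing papillomas or tumors. The set comprised 10 genes, which were Cebpa, Cebpb, Cebpd, Cebpe, Gfi1, Spi1, Runx1, Irf8, Klf2 and Bhlhe40, and was matched by gene name to the probes of the array. Of these, 9 genes were found under their own name, and Spi1 was found under the older name Sfpi1 through its RefSeq transcript. Together they were measured by 11 of 55681 non-control probes, since Runx1 had a pair of probes and every other gene had 1. All 11 probes were well above background in the scanner files of all 9 arrays.

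The FVB/N mice of every group had received the carcinogen DMBA at an age of 6 weeks and again at 13 weeks, and the tumor promoter PMA repeatedly each week from week 1 to week 18-20. Neutrophils were sorted by flow cytometry to over 98% purity from the skin adjacent to papillomas (papilloma skin, 2 arrays), the skin adjacent to carcinomas (tumor skin, 2 arrays), papillomas (3 arrays) and tumors (2 arrays). Each array held RNA pooled from several mice, no group came from untreated skin, and the methods describe dispase and DNase in the digestion of lesions but not of skin, so that digestion and lesion cannot be told apart. Levels are log2 values of the deposited value table, and a probe was called changed at a limma adjusted p of at most 0.05 (Benjamini-Hochberg over all 55681 probes).

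Granulocytes arise from progenitors through a succession of transcription factors. PU.1, encoded by Spi1, and RUNX1 act early in myeloid progenitors, C/EBPα opens the granulocyte path, GFI1 and C/EBPε carry it through the promyelocyte and myelocyte stages, and IRF8 favors monocytes and dendritic cells over granulocytes. C/EBPε is required for the genes of secondary and tertiary granules. C/EBPβ and C/EBPδ take part in emergency granulopoiesis and in the acute phase response, whereas KLF2 and the repressor BHLHE40 are better known from quiescence and from cytokine control in lymphocytes and myeloid cells.

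The array chemistry and the table set limits on all values that follow. Spike-in slopes were 0.678, 0.876 and 0.894 on papilloma skin 1, tumor skin 1 and tumor 1, against 1.04 to 1.06 on the other 6 arrays, and 90.7% to 95% of probes were well above background on those 3 arrays against 43.5% to 63.5%. No spot was saturated. The papilloma skin 1 column of the table correlated with its own scanner file at a Spearman rho of 0.588. It correlated most with the file of tumor 2 (0.924). The tumor 1 column correlated at 0.827 with its own file and most with that of tumor 2 (0.947), from another slide. The columns of papilloma 2 and papilloma 3 were each closest to the other's file (0.981 and 0.959), which leaves the group mean untouched. Slides were taken from the scanner files, so that the slide of these columns, of papilloma skin 1 and of tumor 1 is not sure. This limits the table's values within slides and with slide as a term. Slide accounted for 27.1% of the within-group variance of the table and for 55.9% in the quantile-normalized scanner files, while its share of the degrees of freedom was 40%. The neutrophil marker list summed to 19.67 to 20.06 on the log2 scale over the 9 arrays, with 2 of its 10 genes lower in lesions than in skin (6.49% of all genes), Ly6g (-1.58) and Retnlg (-0.91), and 0 higher.

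Because Runx1 is the one member with several probes and several start sites, both of its RefSeq promoter windows are given (GRCm38.p6, minus strand, 250 bases before to 50 bases after the start). The distal window is at chr16:92826025-92826324 and the proximal one at chr16:92697280-92697579. Capitals mark the RUNX motif TGTGGT on either strand, which was present in 16.8% of the 32851 promoter windows of the table.

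Runx1 distal: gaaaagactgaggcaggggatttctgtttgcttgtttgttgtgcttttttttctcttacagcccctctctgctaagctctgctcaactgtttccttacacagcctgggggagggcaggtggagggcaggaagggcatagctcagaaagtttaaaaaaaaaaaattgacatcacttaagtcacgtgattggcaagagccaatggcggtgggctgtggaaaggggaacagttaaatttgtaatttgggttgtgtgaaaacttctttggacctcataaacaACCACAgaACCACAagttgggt
Runx1 proximal: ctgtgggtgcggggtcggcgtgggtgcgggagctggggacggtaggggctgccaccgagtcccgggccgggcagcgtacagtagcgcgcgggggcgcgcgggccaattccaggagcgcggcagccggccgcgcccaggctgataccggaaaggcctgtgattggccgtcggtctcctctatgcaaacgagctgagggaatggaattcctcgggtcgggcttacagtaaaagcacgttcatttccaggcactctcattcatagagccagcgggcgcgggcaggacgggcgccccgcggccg

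The distal window held the motif at 28 and 36 bases after the start, on the opposite strand, and the proximal window held none of it. The distal window also held the BHLHE40 E-box CACGTG at -71 from the start, a motif present in 7.15% of all windows. It held the GFI1 core AAATCNC at -234 as well, present in 11.7%. The proximal window held the PU.1 core GAGGAA at -46, present in 28.3%. Of the 10 genes, 6 had promoter windows, 9 in all. A match describes letters in a window and not a bound site.

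Runx1 RNA was higher in lesion neutrophils than in skin neutrophils by both probes. Probe A_55_P2183438 (chr16:92605785-92605844, minus strand, mm9) read 10.74 and 10.71 in papilloma skin, 10.74 and 10.82 in tumor skin, 12.06, 12.01 and 12.02 in papilloma, and 11.44 and 11.61 in tumor. Every lesion array lay above every skin array. The rise was 1.31 ± 0.122 (log2 fold change ± SE, 2.48-fold, adjusted p = 0.000962) in papilloma and 0.74 ± 0.133 (1.68-fold, adjusted p = 0.0141) in tumor. Probe A_51_P206585 (chr16:92604413-92604472, minus strand, mm9) read 7.77 and 7.76 in papilloma skin, 7.18 and 7.58 in tumor skin, 8.43, 8.27 and 8.26 in papilloma, and 8.22 and 8.38 in tumor. Again no lesion array overlapped with a skin array. Its rise was called in tumor (0.92 ± 0.169, adjusted p = 0.0155) and not in papilloma (0.56 ± 0.154, adjusted p = 0.0772). Both probes were called for all lesions against all skin, at 1.03 ± 0.0903 (adjusted p = 0.000358) and 0.74 ± 0.114 (adjusted p = 0.00434).

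Bhlhe40, which encodes a basic helix-loop-helix repressor, rose in both lesions. It read 12.99 and 13.06 in papilloma skin, 13.34 and 13.28 in tumor skin, 14.43, 14.49 and 14.47 in papilloma, and 13.88 and 13.83 in tumor. The 4 groups did not overlap with each other, with papilloma highest, followed by tumor, tumor skin and papilloma skin. The rise was 1.43 ± 0.116 (2.7-fold, adjusted p = 0.000563) in papilloma and 0.55 ± 0.127 (1.46-fold, adjusted p = 0.0349) in tumor. The effect in tumor minus that in papilloma was -0.88 ± 0.172, with a 95% interval from -1.28 to -0.49, and did not pass the adjusted threshold (adjusted p = 0.131, unadjusted p = 0.000825). The spread of Bhlhe40 within groups was 0.04 (SD on the log2 scale), at the 0.393 percentile of all probes. With slides as given by the scanner files, lesion minus skin within slide 1 was 1.43 for papilloma and 0.54 for tumor, and within slide 2 it was 1.42 for papilloma.

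Cebpe fell in lesions. Its probe (chr14:55329200-55329259, minus strand, mm9) read 11.09 and 10.51 in papilloma skin, 10.68 and 10.02 in tumor skin, 8.83, 9.21 and 9.26 in papilloma, and 9.47 and 9.67 in tumor. No lesion array reached a skin array. The fall in papilloma was called, at -1.70 ± 0.255 (3.25-fold lower, adjusted p = 0.00753), and that in tumor was not, at -0.78 ± 0.28 (adjusted p = 0.119), but the effects of the stages were not shown to differ (0.92 ± 0.379, adjusted p = 0.316). Over all lesions the fall was -1.24 ± 0.189 (adjusted p = 0.00411). Without papilloma skin 1, the column far from its own file, the papilloma value was -1.41 ± 0.294 (adjusted p = 0.0554).

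Eosinophils also use C/EBPε, and markers of this cell type moved with Cebpe. The eosinophil list summed to 13.82 to 14.18 in papilloma skin, 13.12 to 13.23 in tumor skin, 11.45 to 11.75 in papilloma and 11.84 to 12.03 in tumor (log2). Of its 10 genes, 7 were lower in lesions than in skin (6.49% of all genes), among them Ear2 (-3.58), Alox15 (-2.43) and Ccr3 (-2.16), and 1 was higher, Siglec5 (0.60), taken on this array for Siglecf. The eosinophil granule gene Epx read between 5.01 and 6.31 on all arrays and was well above background on 0 of the 6 arrays with full spike-in slope. The part of eosinophils in the Cebpe result was not tested.

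**Figure D1:**
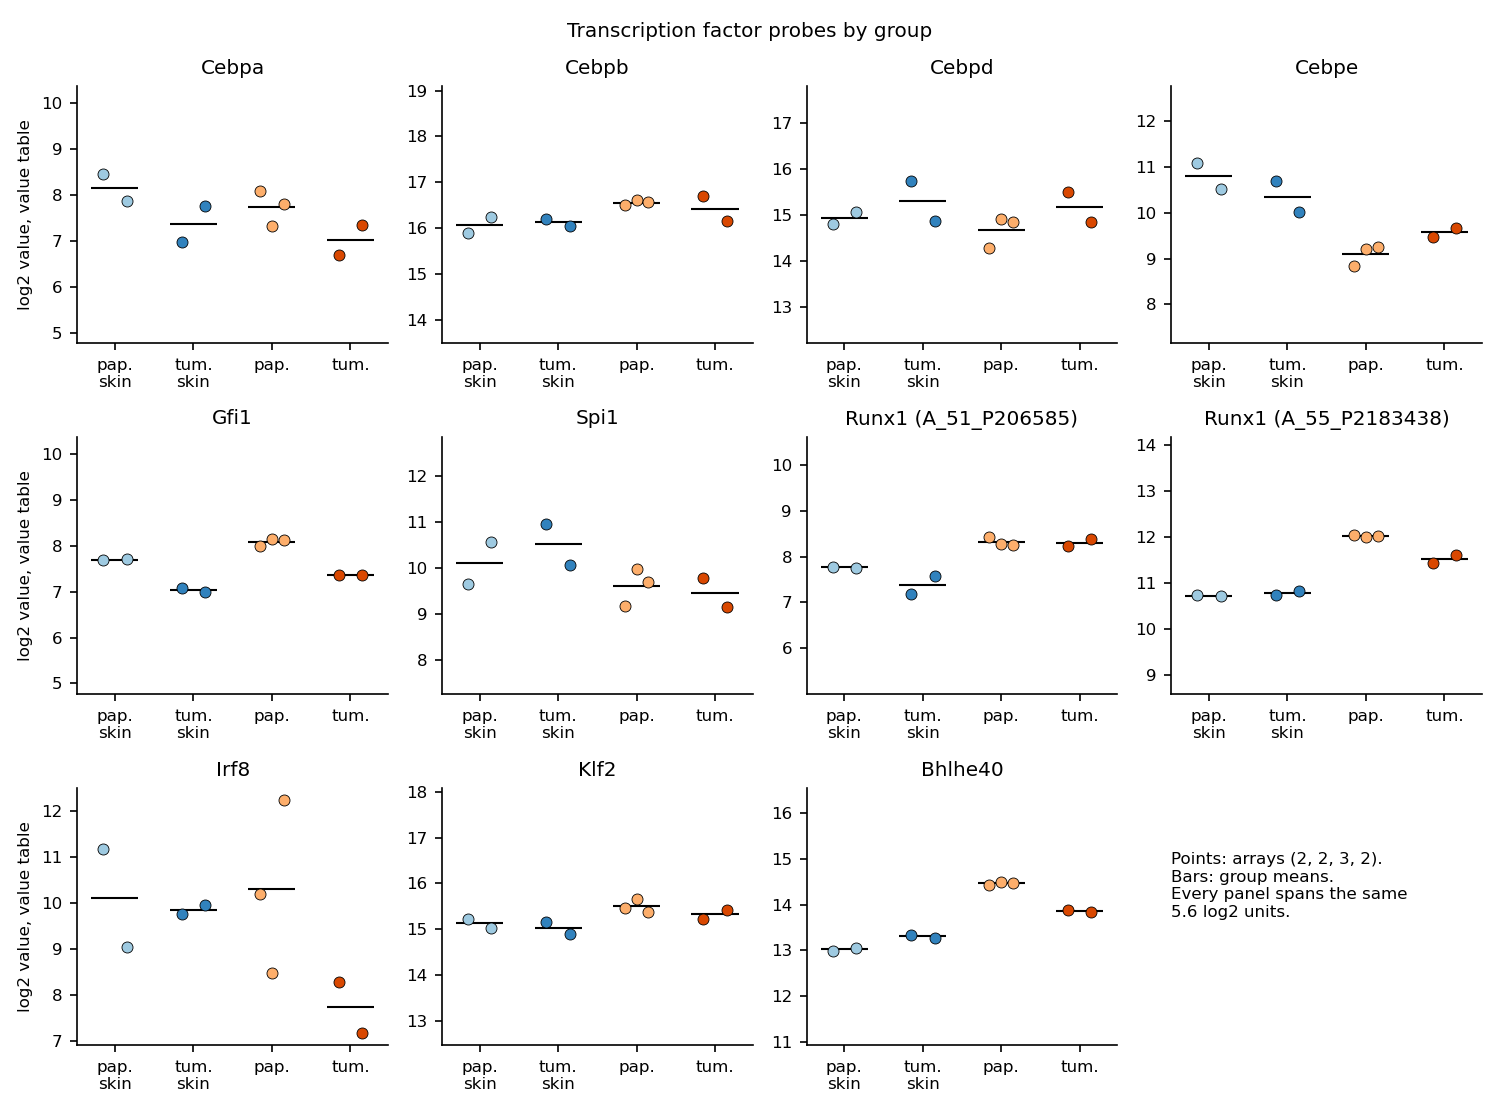
Log2 value of each transcription factor probe (y axis) in the 4 groups (x axis), with a point for each array, a bar at each group mean and the same 5.6 log2 units in every panel. Lesion arrays of Bhlhe40 and of both Runx1 probes lay above all skin arrays, those of Cebpe lay below them, and Irf8 scattered most.

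Gfi1, the repressor that restrains monocyte genes in granulocyte precursors, was higher in lesions than in skin by a small margin. It read 7.68 and 7.72 in papilloma skin, 7.09 and 7.0 in tumor skin, 7.99, 8.14 and 8.13 in papilloma, and 7.37 and 7.37 in tumor. Papilloma was highest, and papilloma skin lay above tumor, so that lesions and skin overlapped as a whole. The mean lesion effect was 0.36 ± 0.0904 (1.28-fold, adjusted p = 0.0334), and it was lost without any single array (adjusted p 0.0623 to 0.103) and with slide as a term (adjusted p = 0.136). In quantile-normalized scanner files with slide as a term it was 0.02 ± 0.435. The difference of Gfi1 was -0.71 ± 0.122 for tumor against papilloma (adjusted p = 0.0515) and -0.66 ± 0.134 for tumor skin against papilloma skin (adjusted p = 0.0631), and neither passed the threshold.

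The remaining C/EBP members were not called in any of the 6 contrasts. Cebpb, a factor of emergency granulopoiesis, read 15.90 and 16.25 in papilloma skin, 16.20 and 16.06 in tumor skin, 16.50, 16.61 and 16.57 in papilloma, and 16.70 and 16.16 in tumor. The papilloma arrays lay above both skin groups while the tumor arrays straddled them, and the lesion effect was 0.39 ± 0.14 (adjusted p = 0.1). Cebpd, its acute phase relative, read 14.80 and 15.06 in papilloma skin, 15.73 and 14.86 in tumor skin, 14.28, 14.91 and 14.84 in papilloma, and 15.50 and 14.84 in tumor, with overlap throughout (-0.19 ± 0.235, adjusted p = 0.642). Cebpa, the factor of early granulocyte commitment, read 8.45 and 7.87 in papilloma skin, 6.98 and 7.75 in tumor skin, 8.09, 7.33 and 7.80 in papilloma, and 6.70 and 7.34 in tumor. Its groups overlapped too, with a lesion effect of -0.38 ± 0.246 (adjusted p = 0.346).

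Spi1, which encodes PU.1, read 9.66 and 10.57 in papilloma skin, 10.97 and 10.07 in tumor skin, 9.18, 9.98 and 9.70 in papilloma, and 9.79 and 9.15 in tumor. The mean was lower in lesions, by -0.78 ± 0.286 with a 95% interval from -1.43 to -0.12, and was not called (adjusted p = 0.111). Klf2, a factor of leukocyte quiescence and trafficking, read 15.23 and 15.03 in papilloma skin, 15.16 and 14.90 in tumor skin, 15.47, 15.66 and 15.38 in papilloma, and 15.23 and 15.43 in tumor. Its lesion effect was 0.34 ± 0.115 (1.26-fold, adjusted p = 0.0917), and lesion and skin arrays met at 15.23.

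**Figure D2:**
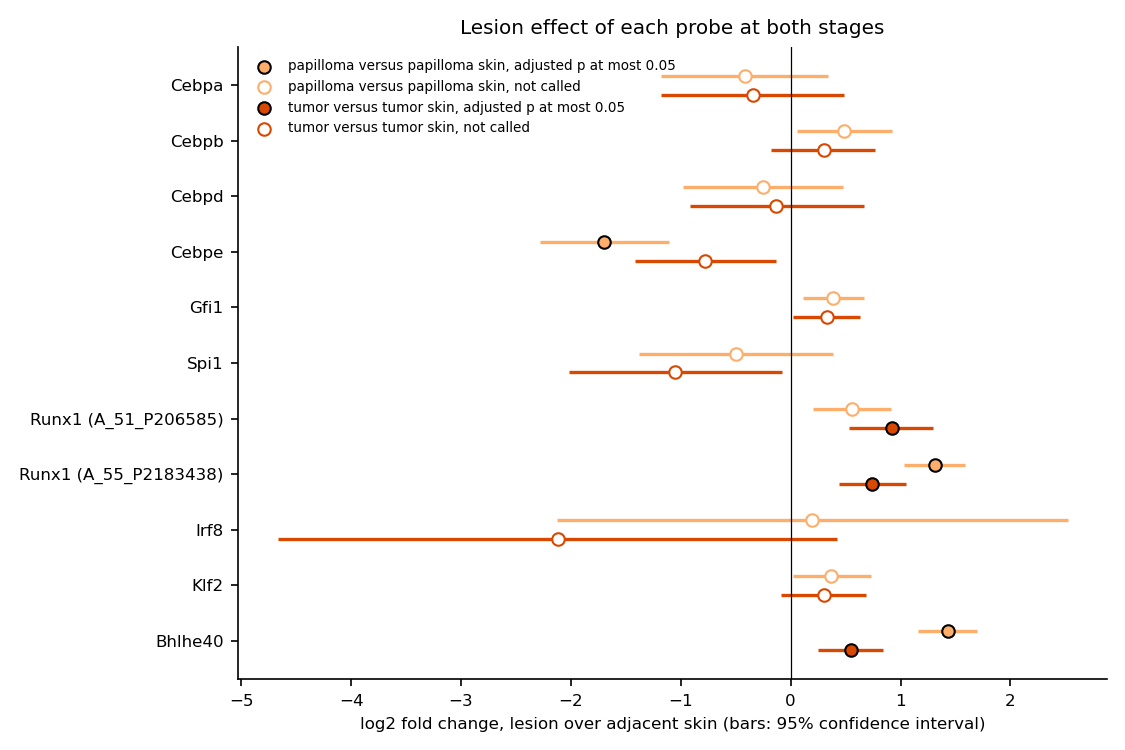
Log2 fold change of each probe, lesion over adjacent skin (x axis), for papilloma and tumor, with 95% confidence intervals as bars and filled points where the adjusted p was at most 0.05. Filled points were those of Cebpe in papilloma, Bhlhe40 and Runx1 A_55_P2183438 at both stages and Runx1 A_51_P206585 in tumor.

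Of the 11 probes, 3 were called in papilloma against papilloma skin, where 6.35% of all probes were, and 3 in tumor against tumor skin, where 9.74% were. For lesions against skin, 5 were called, with a background of 14.8%. Of the 11, 3 were higher and 1 lower in all lesion arrays than in all skin arrays, as were 7.49% and 4.65% of all probes. By limma, 0 were called in tumor against papilloma (background 0.645%; 4 at an unadjusted p under 0.05), 0 in tumor skin against papilloma skin (0.623%; 1) and 0 for the stage difference (0.0323%; 3). When slide was added to the model of the same table, Runx1 A_55_P2183438 and Bhlhe40 were called in papilloma (adjusted p = 0.023 and 0.0159; background 1.92%), Cebpe was not (-1.65, adjusted p = 0.0633), and 0 of the 11 were called in tumor (background 0.381%; 4 at an unadjusted p under 0.05). The calls rested on the value table. The scanner files gave 0 calls of the 11 probes for lesions against skin under each of 7 alternatives, which called 0% to 1.79% of all probes. The values of Cebpe (-1.06 to -0.73), Bhlhe40 (0.91 to 1.4) and Runx1 (0.75 to 1.36 and 0.94 to 1.30) kept their sign there.

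**Figure D3:**
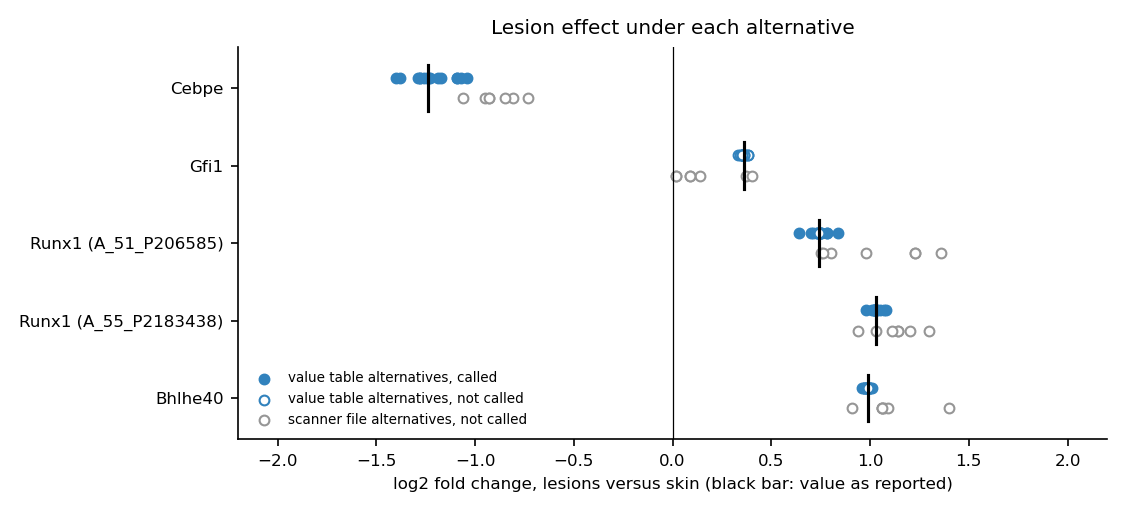
Log2 fold change of lesions versus skin (x axis) for the 5 called probes under the alternatives, in blue for the value table and in gray for the scanner files, filled where called, with a black bar at the value as reported. The sign was kept for all 5 probes. Scanner file alternatives called none of them and 0% to 1.79% of all probes, and the values of Gfi1 came down to 0.02.

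Irf8 was the most variable member. It read 11.19 and 9.04 in papilloma skin, 9.76 and 9.95 in tumor skin, 10.20, 8.49 and 12.24 in papilloma, and 8.28 and 7.18 in tumor. In the value table both tumor columns lay below all other columns, while papilloma columns spanned both the highest value and one of the lower values. The scanner files did not share this order for tumor 1. Within slide 1, tumor minus tumor skin was -1.48 in the table and 0.54 in the quantile-normalized scanner files. Tumor minus papilloma was -1.91 and 0.08. The SD within groups was 1.41 (log2), at the 99.9 percentile of all probes, and no contrast was called, with -2.12 ± 1.11 for tumor against tumor skin (adjusted p = 0.263) and -2.57 ± 1.01 for tumor against papilloma (adjusted p = 0.304). In the scanner files the highest array was papilloma 2 (13.03 after quantile normalization), whereas papilloma 3 had 8.40, the reverse of the table columns.

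Dendritic cells are a lineage that depends on IRF8. Siglech, of plasmacytoid dendritic cells, read 8.43 and 6.39 in papilloma skin, 7.79 and 7.10 in tumor skin, 7.91, 6.85 and 10.82 in papilloma, and 6.00 and 5.55 in tumor, so that its highest column was also papilloma 3. Of the 11 dendritic cell markers, 1 was higher (Itgax, 1.34) and 2 were lower (Cd74, -1.51, and Xcr1, -0.53) in lesions, against 9.84% and 6.49% of all genes. Their median was 0.23 in papilloma against papilloma skin, -0.82 in tumor against tumor skin and -1.3 in tumor against papilloma. Over all genes these medians were -0.01, -0.013 and -0.008. The summed level of the markers ran from 14.77 to 15.24 in papilloma skin, 14.42 to 14.96 in tumor skin, 15.27 to 15.67 in papilloma and 14.10 to 14.29 in tumor. Itgax had the highest mean of the markers in papilloma, at 14.55 against 12.69 in papilloma skin, and weighed most in that sum. Cd74 (12.92 against 13.48) and H2-Ab1 (12.99 against 13.22) were lower in papilloma. By any amount, 6 of the 11 were higher in papilloma than in papilloma skin. Xcr1, of conventional dendritic cells, read between 4.77 and 5.78 and was well above background on 0 of the 6 arrays with full spike-in slope. Fewer cells of a type and less RNA per cell cannot be told apart in these sorted pools, and the part of dendritic cells in the Irf8 values was not tested.

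**Figure D4:**
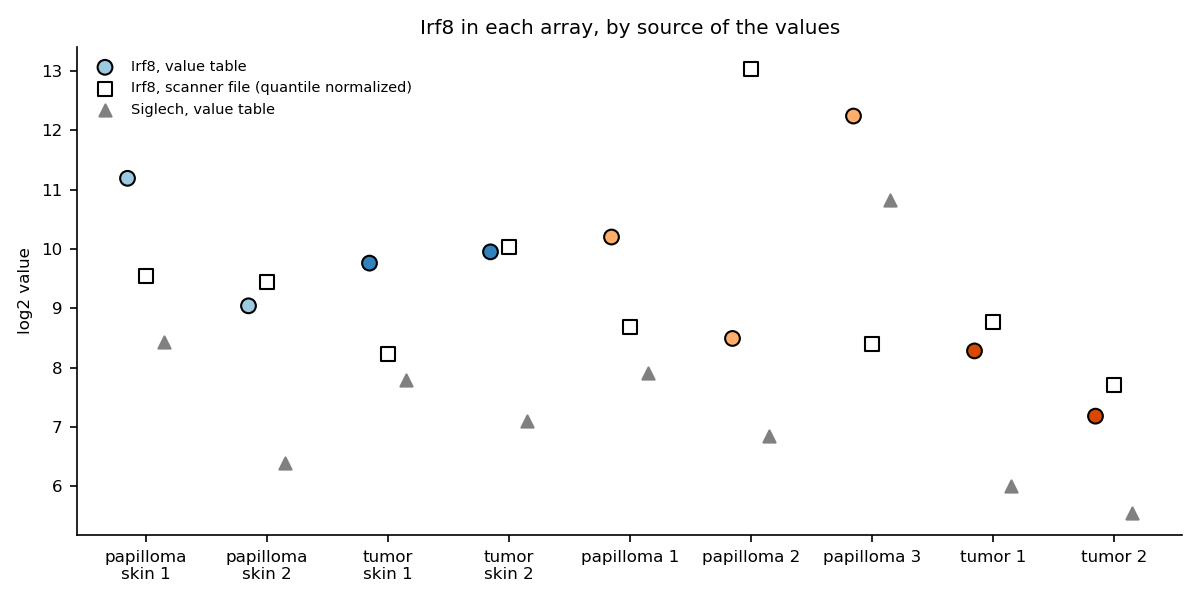
Irf8 in each of the 9 arrays (x axis) as log2 values of the value table (circles, colored by group) and of the quantile-normalized scanner files (squares), with Siglech from the value table (triangles). Irf8 peaked in the papilloma 3 column of the table and in the papilloma 2 scanner file.

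Genes of secondary and tertiary granules, the known C/EBPε program, were lower in lesion neutrophils. As medians over the probes of a gene, 10 of 12 were lower and 0 higher in lesions than in skin (background 6.49% and 9.84% of 34797 gene names), with a list median of -1.57 against -0.018 over all genes. Camp, the cathelicidin precursor, changed by -3.93 ± 0.236 (adjusted p = 6.37e-05), Ngp by -3.33 ± 0.205 (adjusted p = 7.17e-05) and Ltf, lactoferrin, by -2.38 ± 0.266 (adjusted p = 0.000985). The collagenase Mmp8 changed by -1.94 ± 0.194 (adjusted p = 0.000605), while the gelatinase Mmp9 (0.09) and Olfm4 (0.01) were not called. In papilloma 7 of the 12 were lower (background 2.75%) and in tumor 9 (4.22%), which became 4 and 2 with slide as a term. The tumor count was 5 without tumor skin 1 or without tumor 2. Lcn2, lipocalin 2, was called in tumor (-1.46 ± 0.254) and not in papilloma (-0.15 ± 0.232). The summed level of the list was 18.16 to 18.85 in the skin arrays and 16.85 to 17.41 in the lesion arrays. Of the 6 genes of primary granules, which are made earlier, 3 were lower in lesions and 0 higher (background 6.49% and 9.84%). The lower 3 were Ctsg (-1.54), Mpo (-1.21) and Prtn3 (-0.64), and the list's median was -0.51. Those 3 were called lower in papilloma (background 2.75%), and 0 of the 6 in tumor (4.22%). Papilloma skin had the highest mean of each, with Ctsg at 8.71, Mpo at 8.64 and Prtn3 at 7.52. Their tumor skin means were 6.93, 6.36 and 6.7, against 6.48, 6.36 and 6.17 for papilloma arrays and 6.08, 6.23 and 6.77 for tumor arrays. The papilloma skin mean includes the papilloma skin 1 column, which was far from its own file.

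**Figure D5:**
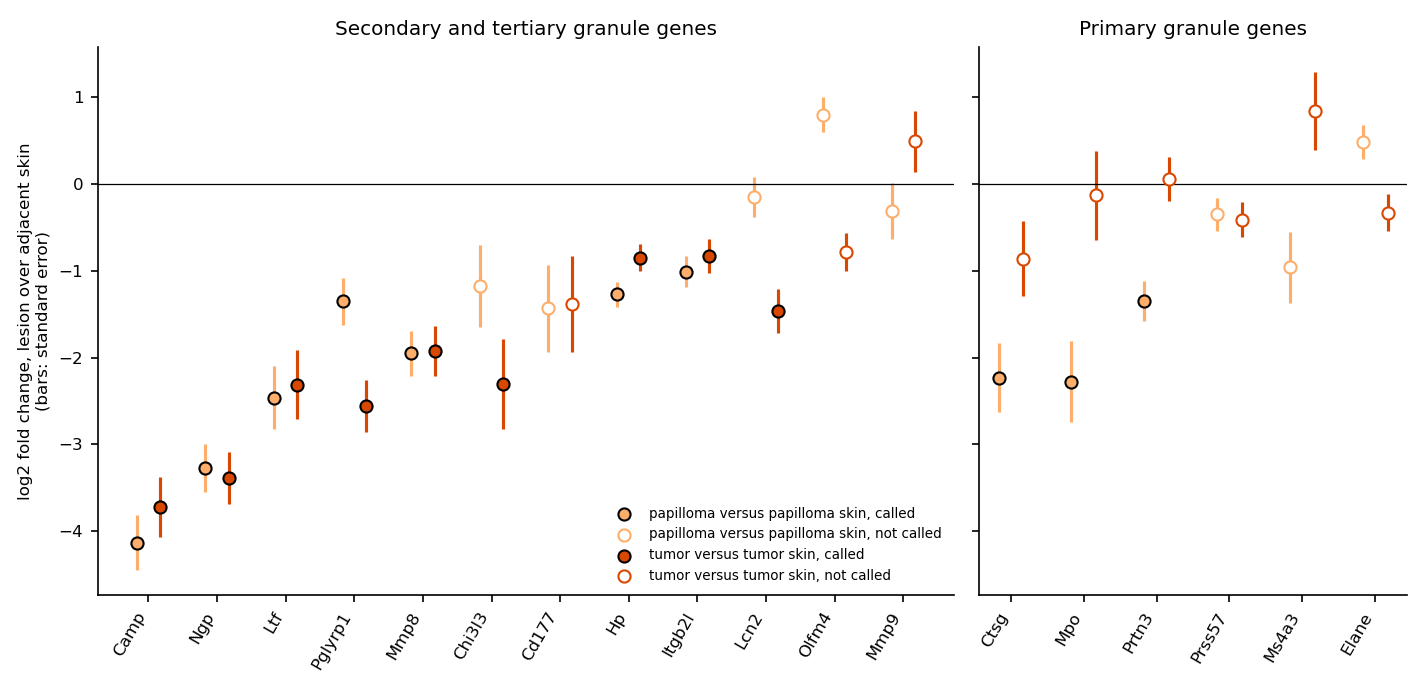
Log2 fold change, lesion over adjacent skin (y axis), of the granule genes (x axis) for papilloma and tumor, with standard errors as bars and filled points where called. Camp and Ngp lay lowest at both stages, and Mmp9 and Olfm4 were near 0 on average.

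The promoter windows of Ngp (chr9:110419558-110419857) and Ltf (chr9:111019042-111019341), both on the plus strand of GRCm38.p6, are shown because these genes fell with Cebpe and hold the C/EBP motif. Capitals mark TTGCNNAA on either strand, which was present in 10.8% of all 32851 windows.

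Ngp: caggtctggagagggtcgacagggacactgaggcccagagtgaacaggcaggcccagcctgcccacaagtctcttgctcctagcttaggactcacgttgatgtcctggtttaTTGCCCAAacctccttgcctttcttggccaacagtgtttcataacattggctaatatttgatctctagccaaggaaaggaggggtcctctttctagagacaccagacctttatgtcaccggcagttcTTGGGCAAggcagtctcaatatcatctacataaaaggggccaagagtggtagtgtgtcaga
Ltf: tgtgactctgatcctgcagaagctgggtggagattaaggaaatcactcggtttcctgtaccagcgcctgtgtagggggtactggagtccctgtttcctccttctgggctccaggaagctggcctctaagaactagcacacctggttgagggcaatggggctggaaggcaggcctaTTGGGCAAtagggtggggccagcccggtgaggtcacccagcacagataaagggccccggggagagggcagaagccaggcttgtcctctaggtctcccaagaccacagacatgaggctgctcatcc

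Ngp held the motif at -138 and -11 from the start and Ltf at -75. Of the 10 granule genes of this list with a window, 4 held it, the other two being Lcn2 and Mmp8. Among the factors, the motif was present in 1 of 9 windows, that of Gfi1, at -143.

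Other regulators were described from lists of related factors. Of 21 bZIP factors related to C/EBP, 6 were higher and 5 lower in lesions than in skin, where 9.84% of all genes were higher and 6.49% lower. The immediate early gene Jun rose by 1.46 ± 0.175 (adjusted p = 0.00136), and the small Maf factors Maff by 1.45 ± 0.123 and Mafk by 1.29 ± 0.0909. Ddit3, the C/EBP homolog of the stress response, rose by 1.36 ± 0.231, with Atf3 (0.80) and Atf4 (0.76) also higher. The fall of Batf3, a factor of dendritic cells, was -1.39 ± 0.275, and Jund (-0.83), Fosb (-0.73), Fosl1 (-0.55) and Cebpz (-0.54) were lower. Of 43 further blood cell regulators, 7 were higher, led by Egr1 (2.38 ± 0.157) and Egr2 (2.23 ± 0.183), with the differentiation inhibitors Id1 (1.29), Id2 (0.82) and Id3 (0.49) and the Ets factors Ets1 (0.89) and Fli1 (0.34). Of all genes 9.84% were higher and 6.49% lower, and the list's median was -0.09. The 5 lower ones were Gata1 (-1.88 ± 0.152), a factor of eosinophils, mast cells and red cells, Klf3 (-1.16), Nfe2 (-1.05), Lyl1 (-0.82) and Ikzf1 (-0.74). The relatives Runx2 and Runx3, the RUNX partner Cbfb, and Gfi1b and Bhlhe41 were not called.

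Of 16 myeloid receptor and NADPH oxidase genes, 2 were higher and 3 lower, against 9.84% and 6.49% of all genes, so that the higher count was near the background. Csf2rb2 (1.07 ± 0.205) and Csf2rb (0.64 ± 0.173), subunits of cytokine receptors, rose, whereas Cybb, the catalytic subunit of the oxidase, changed by -2.16 ± 0.203, Itgb2 by -0.55 and Il6ra by -0.49. Among genes known to respond to KLF2, S1pr1 was higher (1.13 ± 0.271) and Itgb7 was lower (-2.18 ± 0.275). Endothelial markers were higher in lesions for 4 of 6 genes, keratinocyte markers for 4 of 12 and fibroblast markers for 3 of 7, against 9.84% of all genes, while 1 fibroblast marker, Dcn, was lower (-0.98 ± 0.238, adjusted p = 0.0273). Their part in the higher factors was not tested. Of 7 B cell markers, 3 were lower in lesions and 0 higher (6.49% and 9.84% of all genes), namely Igj, the joining chain of immunoglobulins (-6.92 ± 0.571), Cd79b (-2.26 ± 0.388) and Ms4a1 (-0.85 ± 0.226). Their summed level was 13.33 to 15.24 in the skin arrays and 8.59 to 9.57 in the lesion arrays (log2), while the B cell factor Pax5 was not called (-0.31). B cells also express Spi1 and Ikzf1, and the part of B cells in the values of these genes was not tested. Of 10 monocyte and macrophage markers, 3 were lower in lesions, namely Emr1 (-2.56), Ccr2 (-2.14) and Cx3cr1 (-1.14). The higher ones were 2, C1qa (0.75) and Cd68 (0.46), against 6.49% lower and 9.84% higher of all genes. The part of monocytes and macrophages in the values of Spi1 and Irf8 was not tested.

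Genes with the most similar profile over the 9 columns, among 19950 probes, are given as a description. They were Lyz2 (Pearson r = 0.991), Adap1 (0.985) and Sytl1 (0.984) for Cebpe, and Art3 (0.993), Manbal (0.989) and Serpini1 (0.984) for Bhlhe40. Runx1 A_55_P2183438 was most like Serpini1 (0.992), A130072N09Rik (0.992) and Mafk (0.991), Runx1 A_51_P206585 like Ippk (0.995), Ahcyl1 (0.992) and Tpp1 (0.991), and Gfi1 like Synm (0.973), Vipr1 (0.973) and BC057675 (0.971). All columns share the groups, so that any gene with the same group means ranks high.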

How the data were processed

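RNA of sorted neutrophils was hybridized to 9 one-color (Cy3) Agilent SurePrint G3 mouse arrays, and groups were taken from the sample labels. Per the file headers, Feature Extraction 10.7.3.1 gave the fluorescence intensity of each spot after background subtraction and detrending, with no scaling between arrays, and probe positions are on mm9. A log2 table, with a value for each probe on every array, was deposited by the authors too. According to the methods, limma was used for quantile normalization and ComBat for the batch effect of the chips. Which of these steps the table holds was not stated, and it was tested as deposited. All of its columns were used.

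A mean per group was fitted to 55681 probes with limma 3.58.1 (R 4.3.3, with version 1.17.8 of data.table), which left 5 residual degrees of freedom, and p-values were adjusted by Benjamini-Hochberg over all probes for 6 contrasts. The small number of arrays limits the precision. The methods call the replicates biological, and neutrophils came from pools of mice. The p-values measure the spread between pools that is left in the table, which a removal of the chip effect beforehand would make smaller. In quantile-normalized scanner files, removal of slide beforehand gave calls for 3.41% of all probes in papilloma against papilloma skin, and slide as a term for 0%. For listed genes the median of all probes with that gene name was used. All 10 factors were named, and of each list up to 4 genes per direction, those with the largest change among genes called in lesions against skin. Further listed genes and marker genes were named after their values were seen, and some listed results are not reported here. The genes with the most similar profile were the 3 with the highest Pearson r among probes with a symbol and a mean level of at least 6. The factors and lists were chosen with earlier results of these data known.

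The alternatives were 15 settings of source, scaling, slide, filter and threshold, each of the 9 arrays left out in turn, and 2 settings chosen after seeing the data, namely the table without the columns of papilloma skin 1 and tumor 1, and 75th percentile scaling on the 6 arrays whose spike-in slope reached 0.9. ComBat itself was replaced by removal of slide in limma. Scanner intensities had outlier spots left out and were log2 transformed, and spots of a probe were averaged. The model was tested on simulated data. Figures used Python 3.11.15, pandas 2.3.3 and matplotlib 3.10.9.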

Additional observations from a re-analysis of the deposited data

How the results depend on the processing

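None of the 11 called values changed its sign under the alternatives run, whereas the value of Gfi1 in papilloma against papilloma skin, not called, ran from -0.09 to 0.44. Set against the alternatives, the 11 called values kept the call 164 times and lost it 122 times. From the scanner files, the count of called factor probes was 0 in papilloma against papilloma skin, in tumor against tumor skin and in lesions against skin with quantile normalization and slide as a term, with quantile normalization alone, with the 75th percentile, with normexp and on the 6 arrays with full spike-in slope by either scaling, with 0 to 4 of the 11 at an unadjusted p under 0.05. Over all probes these settings called 0% to 1.79%. Removal of slide beforehand gave 2 in papilloma, 0 in tumor and 0 in lesions against skin (3.41%, 0.0216% and 1.76% of all probes). In tumor against tumor skin, the table gave 3 calls, 0 with slide as a term (0.381% of all probes), 0 with the replicate block (1.42%), 0 with the fold and level threshold of the methods (4.21%), and 1 without the 2 columns far from their own file (4.2%). That threshold left 2 of 5 in lesions against skin (3.62%). In tumor against papilloma, the median per gene gave 1 call (Gfi1, adjusted p = 0.0357; 0.983% of all genes) and array weights gave 2 (Gfi1, 0.0283, and Bhlhe40, 0.0414; 1.38% of all probes), both lower in tumor. Leaving out 1 array gave 0 to 3 calls in tumor against tumor skin, with 0 without tumor skin 1 or tumor 2 and 1 without tumor skin 2 or tumor 1, 2 to 3 in papilloma against papilloma skin and 4 in lesions against skin, with 1.61% to 9.53%, 2.9% to 6.33% and 7.98% to 13.8% of all probes. Where an arm was left with 1 array, it was assumed to vary like the others. The cause of these losses was not tested.

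Deviations of same-numbered arrays from their group means correlated at r -0.957 to 0.376 over 12 pairs. In groups of 2 arrays the deviations mirror each other, and a removed chip effect could take a shared deviation with it. Whether the numbers pair the arrays thus cannot be told from these values. With the replicate block the calls were 2 in papilloma (1.05% of all probes) and 4 in lesions against skin (5.39%). The 75th percentile moved the median of all probes by -0.368 in papilloma against papilloma skin and by -0.289 in lesions against skin. For the listed genes, 30 counts of called genes were above 0. Under the alternatives run for lists, these stayed within 1.5 times in 218 cases, were lower in 222 and higher in 10. On the 3 arrays with low spike-in slope nearly all probes passed the background flag, so that it says little there.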
